A study of Homo sapiens with 9 samples.

Results

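The nuclear genes for mitochondrial complex I were followed in MDA-MB-231 cells, a human triple-negative breast cancer line, through a block of splicing and its release. The drug was pladienolide B (PdB), which binds the SF3B1 complex of the spliceosome. The 3 groups of 3 libraries were cells given DMSO, cells given 10 nM PdB for 16 h, and cells collected 24 h after that treatment, called recovery here. Genes were taken as members where the Ensembl ID maps to a protein-coding symbol beginning NDUFA, NDUFB, NDUFC, NDUFS, NDUFV or NDUFAF and followed by a digit or by B1. This gave 48 of the 60708 genes in the count table, of which 47 are described here. A further 67 entries with such names, pseudogenes, antisense and divergent transcripts, were left out. Of the 47, 36 encode structural subunits (NDUFAB1 included), 8 the NDUFAF assembly factors, and the others are NDUFA4, NDUFA4L2 and the readthrough NDUFC2-KCTD14. The filter on low counts was passed by 46 of the 47. The exception was NDUFA4L2, a relative of NDUFA4 known as a hypoxia target, which had between 0 and 0.283 CPM in the 9 libraries, where CPM are read counts scaled to the size of the library, with TMM factors. The labels do not state whether the libraries of a group came from separate cultures, so the p-values measure only the spread between these libraries. They also give no time for DMSO, and no DMSO group for the recovery time is listed. In recovery against DMSO, the aftermath of the drug and the later collection therefore cannot be told apart.

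Complex I, or NADH:ubiquinone oxidoreductase, is the entry point of the respiratory chain. Its matrix arm takes electrons from NADH through a flavin and a chain of iron-sulphur clusters to ubiquinone, and its membrane arm pumps protons. The catalytic subunits of the matrix arm are encoded in the nucleus and those of the membrane arm in mitochondrial DNA. Accessory subunits surround this core, and assembly factors help to build the enzyme without remaining in it. The enzyme is thus built from both genomes, and only its nuclear genes have introns.

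Library totals lay between 56389689 and 67047079 counts. The line's own markers were abundant (VIM from 1080 to 2910 CPM, CD44 from 729 to 1050 CPM), whereas ESR1 and the blood marker HBB were at 0 in all 9 libraries, PGR reached 0.0634 CPM and the leukocyte marker PTPRC 0.523 CPM. Other markers listed as low in the line or as blood markers were present: CD68 at 82.3 to 139 CPM, ERBB2 at 49.1 to 110, GATA3 at 12.4 to 46.8 (means of 13.5 in DMSO, 45.9 under PdB and 22.5 at recovery), EPCAM at 2.17 to 6.51 and CDH1 at 0.0317 to 1.39. Their part in the results was not tested. Mitochondrially encoded genes took 4.67 to 5.59% of the counts in DMSO, 6.71 to 8.43% under PdB and 8.02 to 8.18% at recovery. The part of that share in the results below was not tested. CPM are relative to the rest of the library, so neither the number of cells nor the RNA per cell is seen in these bulk samples. A rise in CPM and a smaller loss than that of other transcripts therefore cannot be told apart.

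Under PdB most complex I genes stood higher than in DMSO. Of the 46 tested, 33 rose, 6 fell and 7 did not pass (edgeR quasi-likelihood test, Benjamini-Hochberg adjusted over 20812 genes at 0.05). Over all genes tested, 32% rose and 38.2% fell, so 70.1% changed in some direction. The median log2 change of the members was 0.493 beside -0.11 for all genes tested, and with library totals as the scaling these were 0.296 and -0.306. With that scaling 27 members rose and 9 fell. Their summed level was 1910, 2070 and 2130 CPM in the DMSO libraries, 2870, 2920 and 2820 CPM under PdB, and 1940, 2000 and 1950 CPM at recovery. The PdB libraries were above every other library, and the recovery libraries lay within the range of DMSO. Changes were mostly modest: 5 members moved by at least 2-fold, the rises of NDUFAF5, NDUFAF4, NDUFA11, NDUFS6 and NDUFB11, and the largest fall, that of NDUFS1, had a log2 change of -1.0. The DMSO library with the lowest sum was replicate 1, and without it 29 members rose and 6 fell.

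**Figure D1:**
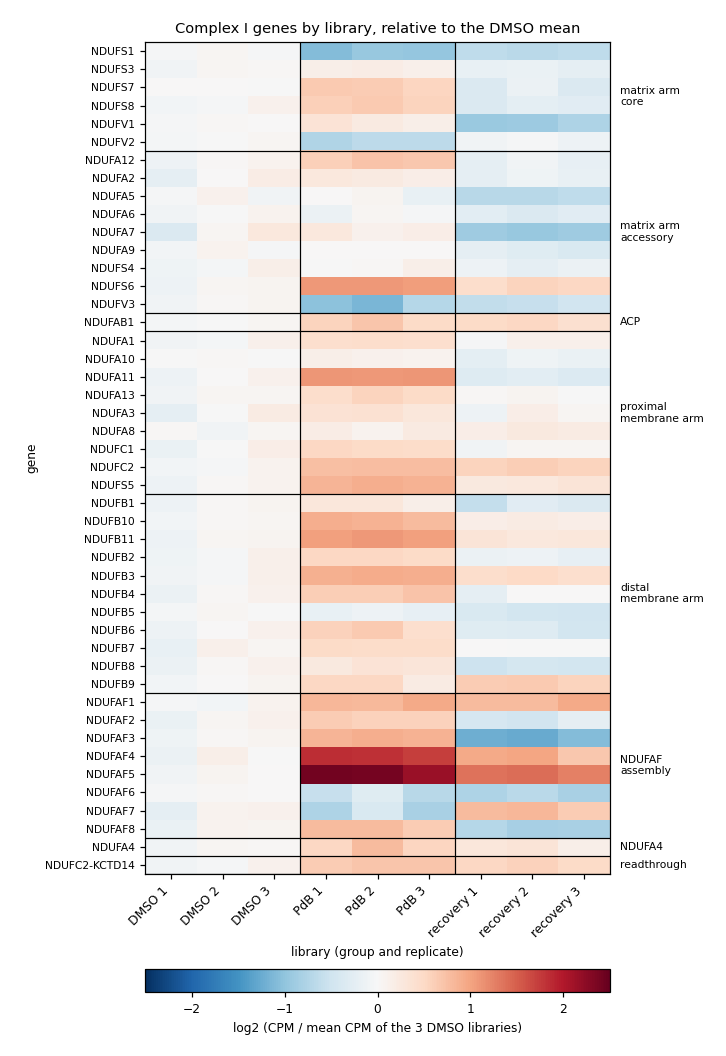
Heat map of log2(CPM divided by the mean CPM of the 3 DMSO libraries) for the 46 complex I genes tested, with genes as lines grouped by their place in the enzyme and libraries as columns. The PdB columns are mostly red in the membrane arm and mixed in the matrix arm, and NDUFAF5 has the darkest red.

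The direction differed within the enzyme. All 6 core subunits of the matrix arm described here passed the test under PdB, 4 upwards and 2 downwards, and their summed level was 505 ± 14 CPM in DMSO and 538 ± 15 under PdB (mean ± SD, n = 3). Of the 20 membrane arm accessory subunits, 17 rose, 1 fell and 2 did not pass, with a summed level 1.55 times that of DMSO. The 8 NDUFAF factors gave 6 rises and 2 falls, and their sum was 1.86 times that of DMSO. Over all genes tested 32% rose and 38.2% fell under PdB. The counts by class are descriptions, and the difference between the classes was not tested.

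The core subunits NDUFS1 and NDUFV2 fell under PdB. NDUFS1 (chr2:206114817-206159603, GRCh38) is the largest core subunit and carries iron-sulphur clusters. It stood at 94.4, 98.9 and 94.6 CPM in DMSO, 45.1, 49.9 and 49.3 CPM under PdB and 61.4, 60.4 and 61.6 CPM at recovery. The PdB libraries were lowest, the recovery libraries in between, and no groups overlapped. The log2 change was -1.0 ± 0.056 (SE) under PdB (adjusted p = 1.3e-11) and -0.65 ± 0.055 at recovery against DMSO (adjusted p = 8.3e-09). NDUFV2, an iron-sulphur subunit at the NADH end, was also lowest under PdB, with 56.1, 57 and 60.1 CPM in DMSO, 34.4, 36.9 and 36.8 CPM under PdB and 54.5, 56.7 and 52.6 CPM at recovery. All PdB libraries were below the others, and DMSO and recovery overlapped. NDUFV2 fell by 0.68 on the log2 scale under PdB (SE 0.061), and its recovery value of -0.08 ± 0.06 against DMSO did not pass.

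The other 4 core subunits went the opposite way and then below DMSO at recovery. NDUFV1 holds the flavin and the NADH site. It was at 130, 135 and 134 CPM in DMSO, 169, 155 and 147 CPM under PdB and 69.5, 70.6 and 77.5 CPM at recovery. PdB libraries were highest and recovery libraries far lowest. Its log2 change was 0.24 ± 0.058 under PdB, and at recovery it fell by 0.87 against DMSO (SE 0.059) and by 1.11 against PdB (SE 0.059). NDUFS7 carries the last iron-sulphur cluster before ubiquinone. It was at 53.5, 53.5 and 53.4 CPM in DMSO, 83.7, 82.9 and 77.5 CPM under PdB and 41.4, 48.1 and 41.7 CPM at recovery. NDUFS8, another iron-sulphur protein of the ubiquinone module, was at 76.2, 78.2 and 86.6 CPM in DMSO, 122, 126 and 118 CPM under PdB and 62.3, 68.2 and 65.8 CPM at recovery. In both genes every PdB library was above DMSO and every recovery library below it. Both changed by 0.61 on the log2 scale under PdB, and at recovery against DMSO NDUFS7 fell by 0.29 (SE 0.064) and NDUFS8 by 0.30 (SE 0.059). NDUFS3, a scaffold of the ubiquinone module, moved least, with 79.3, 87.2 and 85.7 CPM in DMSO, 92.7, 95.2 and 91.7 CPM under PdB and 74.1, 75.4 and 71.8 CPM at recovery. Its groups did not overlap, but the changes were small: 0.15 ± 0.053 under PdB (adjusted p = 0.019) and -0.19 ± 0.054 at recovery against DMSO (adjusted p = 0.0052). The PdB call for NDUFS3 was lost without DMSO replicate 1 (log2 change 0.0999), without PdB replicate 2 (0.127) and without the filter on low counts (0.115), and its sign turned with library totals as the scaling (-0.048). Its recovery call against DMSO was lost with upper-quartile factors (-0.112) and library totals (-0.117). With library totals the PdB call for NDUFV1 was lost too (0.0416).

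**Figure D2:**
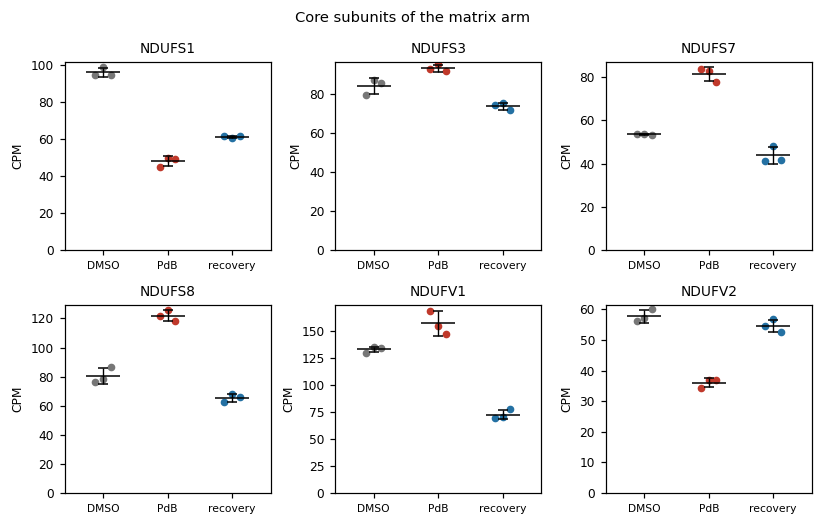
CPM of 6 core subunits of the matrix arm, 1 panel per gene, with each library as a point and bars for the mean ± SD of 3 libraries. NDUFS1 and NDUFV2 are lowest under PdB, and NDUFS3, NDUFS7, NDUFS8 and NDUFV1 are highest under PdB and lowest at recovery.

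The transcripts of a pair of subunits that contact each other moved apart. NDUFV1 and NDUFV2 form the NADH-oxidising tip. The ratio of their CPM, which is not corrected for length, was 2.31, 2.38 and 2.23 in DMSO, 4.92, 4.21 and 3.99 under PdB and 1.28, 1.25 and 1.47 at recovery. The ratio was highest in the PdB libraries and lowest at recovery, without overlap. Protein was not measured, so this is a ratio of transcripts only. An unnamed same-strand gene shares 28.4% of the exon bases of NDUFV2 at levels near its own, so reads may be shared. Other core subunits moved alike, such as NDUFS7 and NDUFS8 with 0.61 each under PdB.

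The 9 matrix arm accessory subunits were the class with the lowest share of calls under PdB: 3 rose, 1 fell and 5 did not pass. Their median log2 change was 0.0566. The share that rose, 33.3%, was near the 32% of all genes tested, and 11.1% fell beside 38.2%. Among the rises, that of NDUFA2 was small (0.22 ± 0.093), and its DMSO and PdB libraries overlapped. Its call was lost without DMSO replicate 1 (0.115), without the filter (0.189), with library totals (0.0261) and in several other alternatives. NDUFS6, a zinc-binding subunit that joins late in assembly, was at 59.8, 67.9 and 68.2 CPM in DMSO, 138, 138 and 135 CPM under PdB and 88, 95.5 and 93.6 CPM at recovery. All PdB libraries were above recovery and all recovery libraries above DMSO. The log2 change was 1.07 ± 0.058 under PdB and 0.50 ± 0.058 at recovery against DMSO. NDUFV3, a subunit next to NDUFV1 and NDUFV2, went the other way, from 31.6, 34.2 and 35.1 CPM in DMSO to 16.5, 15.2 and 20.6 CPM under PdB and 22, 22.7 and 24.1 CPM at recovery. Its PdB libraries were lowest, and none of its groups overlapped. NDUFV3 fell by 0.95 under PdB (SE 0.098) and by 0.55 at recovery (SE 0.096), both on the log2 scale against DMSO. NDUFA5, NDUFA6, NDUFA7, NDUFA9 and NDUFS4 did not pass under PdB, which does not show that they were unchanged. The first 4 of these fell at recovery against DMSO. NDUFA7 had the largest of those falls, from 13, 17.2 and 20 CPM in DMSO and 20, 18.1 and 18.7 CPM under PdB to 9.05, 8.71 and 9.08 CPM at recovery. Its DMSO and PdB libraries overlapped and its recovery libraries were below both, with a log2 change of -0.90 ± 0.12 against DMSO (adjusted p = 4.7e-06). An unnamed gene on the same strand shares 32.3% of the exon bases of NDUFA7 and was above it, at mean levels of 42.5, 60.4 and 30.7 CPM in DMSO, PdB and recovery, so reads may be shared. NDUFS4, a subunit known from inherited complex I deficiency, passed only against PdB (-0.22 ± 0.081, adjusted p = 0.023), a call lost without PdB replicate 3 (-0.173), recovery replicate 2 (-0.187) or recovery replicate 3 (-0.217), and its sign turned with library totals (0.0447).

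Rises were the rule in the membrane arm under PdB, where 32% of all genes tested rose. Of the 9 proximal accessory subunits 8 rose and NDUFA10 did not pass, and of the 11 distal ones 9 rose, NDUFB5 fell and NDUFB1 did not pass. NDUFA11, which sits where complex I meets complex III in supercomplexes, had 76, 83.8 and 89.5 CPM in DMSO, 178, 177 and 178 CPM under PdB and 66.6, 69.5 and 65.4 CPM at recovery. The PdB libraries were far above both other groups, and recovery was below DMSO in every library. Its log2 change was 1.10 ± 0.058 under PdB and -0.31 ± 0.058 at recovery against DMSO. NDUFB11, a small subunit of the distal arm, was at 45.5, 51 and 51.7 CPM in DMSO, 100, 105 and 100 CPM under PdB and 61.6, 59.4 and 60.5 CPM at recovery. Here recovery stayed above DMSO, with log2 changes of 1.04 ± 0.059 under PdB and 0.29 ± 0.059 at recovery. NDUFB9, also of the distal arm, was the only member with a call upwards in all 3 comparisons, at 24.6, 25.9 and 27.1 CPM in DMSO, 37, 37.1 and 29.9 CPM under PdB and 40.2, 40.8 and 38.1 CPM at recovery. PdB replicate 3 lay apart from the other PdB libraries of NDUFB9, and without it the recovery value against PdB no longer passed (log2 change 0.1, adjusted p = 0.24). That call of NDUFB9 was also lost with RLE factors or DESeq2 (0.143), upper-quartile factors (0.121) and a mean of at least 50 counts (0.11), and without DMSO replicate 2 (0.202), recovery replicate 1 (0.195) or recovery replicate 2 (0.183). The fall of NDUFB5 was small (-0.17 ± 0.069), and it was lost with RLE scaling (-0.0756), with DESeq2 (-0.0754), with upper-quartile factors (-0.0221), with a mean of at least 50 counts (-0.0489), with only the 6 libraries compared (-0.0949) and without DMSO replicate 2 (-0.154), PdB replicate 1 (-0.168) or PdB replicate 3 (-0.16). NDUFA8 rose by 0.16 ± 0.068, a call lost when any library other than PdB replicate 2 was left out (0.116 to 0.176) or without the filter (0.13), and its sign turned with library totals (-0.0321).

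**Figure D3:**
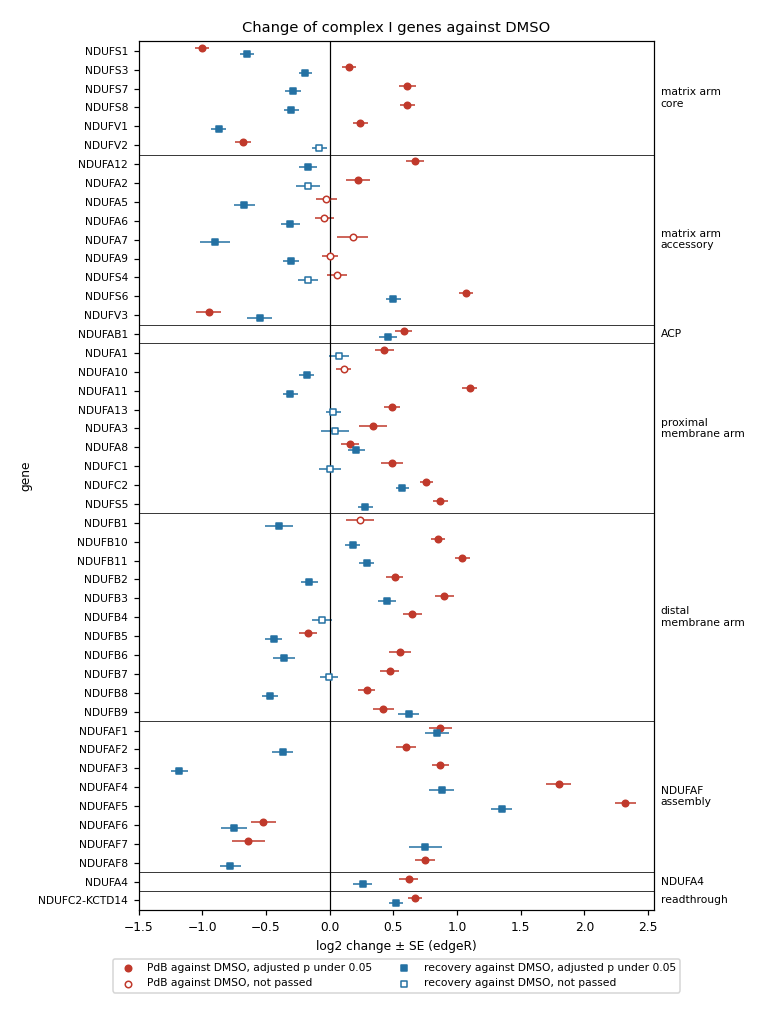
Log2 change ± SE from edgeR for the 46 complex I genes tested, PdB against DMSO as circles and recovery against DMSO as squares, filled where the adjusted p is under 0.05. Most circles lie right of 0, most squares lie left of their circle, and NDUFAF5 and NDUFAF4 lie farthest right.

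The assembly factors covered the widest range, from 2.32 for NDUFAF5 to -0.64 for NDUFAF7 under PdB on the log2 scale. NDUFAF5 (chr20:13784950-13821582, GRCh38) hydroxylates an arginine of NDUFS7. It was at 10.5, 11.7 and 11.1 CPM in DMSO, 58.9, 58 and 49.4 CPM under PdB and 28.5, 29.4 and 26.7 CPM at recovery. PdB was far above the other groups and recovery remained above DMSO. The log2 change was 2.32 ± 0.084 under PdB (adjusted p = 2.7e-14) and 1.35 ± 0.083 at recovery (adjusted p = 1.1e-10). NDUFAF8, which is known to work with NDUFAF5, was at 27.1, 32.3 and 31.8 CPM in DMSO, 52.4, 52.9 and 47.5 CPM under PdB and 18.6, 17 and 17.4 CPM at recovery. It too was highest under PdB, but at recovery it was below DMSO in every library. The log2 change of NDUFAF8 was 0.75 ± 0.079 under PdB and -0.78 ± 0.081 at recovery against DMSO.

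NDUFAF3 and NDUFAF4 act together on the ubiquinone module, and both rose under PdB and parted at recovery. NDUFAF4 (chr6:96889313-96897881) was at 9.52, 11.7 and 10.4 CPM in DMSO, 38, 37.3 and 35.1 CPM under PdB and 20.2, 21 and 16.9 CPM at recovery, in 3 separate ranges. Its log2 change was 1.80 ± 0.098 under PdB and 0.88 ± 0.098 at recovery. NDUFAF3 (chr3:49020459-49023495) was at 47.5, 52.1 and 53.9 CPM in DMSO, 92.4, 96.1 and 92.9 CPM under PdB and 22, 21.5 and 24 CPM at recovery. The recovery libraries were far below DMSO. NDUFAF3 changed by 0.87 ± 0.063 under PdB and fell by 1.18 at recovery against DMSO (SE 0.065) and by 2.06 against PdB (SE 0.066, adjusted p = 1.1e-14), the largest change of a member between PdB and recovery. DALRD3, on the opposite strand, overlaps 21.6% of the exon bases of NDUFAF3. Its mean level was 24.5 CPM in DMSO, 12.4 under PdB and 22.5 at recovery, and it moved in the direction opposite to NDUFAF3 under PdB.

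NDUFAF7 is a methyltransferase that acts in the assembly of the matrix arm. It was at 7.98, 9.97 and 10.1 CPM in DMSO, 5.5, 7.18 and 5.34 CPM under PdB and 16.1, 16.6 and 14.6 CPM at recovery. It was lowest under PdB and highest at recovery, without overlap, and was the only member that fell under PdB and rose above DMSO afterwards. Its log2 changes were -0.64 ± 0.13, 0.75 ± 0.13 at recovery against DMSO, and 1.39 ± 0.13 at recovery against PdB. CEBPZ and PRKD3, on the opposite strand, overlap 2.27% and 7.26% of the exon bases of NDUFAF7. Their mean levels in DMSO, PdB and recovery were higher (72.3, 55 and 155 CPM, and 69.2, 33.1 and 42.1 CPM). CEBPZ moved in the directions of NDUFAF7 (-0.39 under PdB and 1.10 at recovery against DMSO), whereas PRKD3 stayed below DMSO at recovery. Whether NDUFAF7 holds reads of these genes was not tested. NDUFAF1, a part of the assembly complex for the membrane arm, was at 9.86, 9.62 and 10.7 CPM in DMSO, 17.9, 17.7 and 19.5 CPM under PdB and 17.4, 17.3 and 19.5 CPM at recovery. PdB and recovery overlapped and both stood above DMSO, with log2 changes of 0.87 ± 0.093 and 0.84 ± 0.093. NDUFAF2, which binds late intermediates, was at 31.8, 36.6 and 38.1 CPM in DMSO, 55.4, 53 and 52.7 CPM under PdB and 26.4, 25.6 and 30.4 CPM at recovery. PdB was highest and recovery lowest, with log2 changes of 0.60 ± 0.08 and -0.37 ± 0.08 against DMSO. NDUFAF6, needed early in assembly, was at 17.7, 18.5 and 18.1 CPM in DMSO, 12.2, 14.6 and 11.2 CPM under PdB and 10.6, 11.4 and 10.3 CPM at recovery. It fell in both comparisons with DMSO (-0.52 ± 0.1 and -0.75 ± 0.1), and PdB and recovery overlapped.

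**Figure D4:**
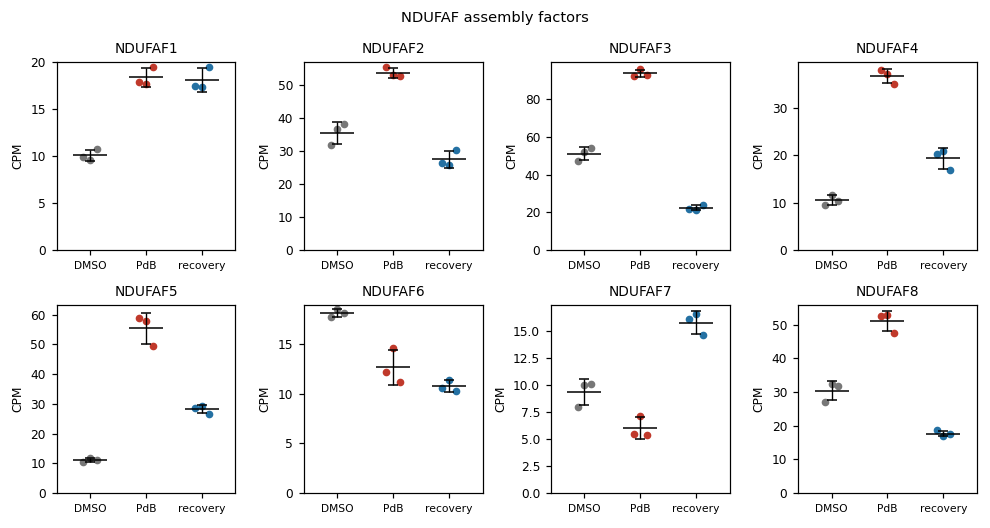
CPM of NDUFAF1 to NDUFAF8, 1 panel per gene, with each library as a point and bars for the mean ± SD of 3 libraries. NDUFAF4 and NDUFAF5 are highest under PdB and stay above DMSO at recovery, NDUFAF3 and NDUFAF8 end below DMSO, and NDUFAF7 is lowest under PdB and highest at recovery.

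NDUFAB1, the mitochondrial acyl carrier protein, which also serves lipoic acid and iron-sulphur synthesis, rose and stayed up. It was at 31.7, 32.7 and 33.9 CPM in DMSO, 48.4, 53 and 45.6 CPM under PdB and 45.4, 47.1 and 43 CPM at recovery. Both later groups were above DMSO and overlapped each other (log2 changes 0.58 ± 0.069 and 0.46 ± 0.069). NDUFA4, named as a complex I subunit and now assigned to complex IV, was at 37.6, 41.4 and 41 CPM in DMSO, 57.2, 68.9 and 58.3 CPM under PdB and 48.4, 50.2 and 44.5 CPM at recovery. Its 3 groups were separate, with log2 changes of 0.62 ± 0.076 and 0.26 ± 0.076 against DMSO.

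At recovery the balance turned. Against DMSO 15 members rose, 22 fell and 9 did not pass, where 30.7% of all genes tested rose and 30.5% fell, or 61.2% in either direction. The median log2 change of the members was -0.163, and that of all genes tested 0.0261. The members' median was -0.0858 with upper-quartile factors, -0.0916 with library totals and -0.0898 without DMSO replicate 3, where that of all genes was 0.102, 0.0973 and 0.0413. The core subunits held no rise, with 5 falls and NDUFV2 not passing, and their summed level was 0.736 times that of DMSO. The membrane arm accessory subunits were split evenly, with 7 rises and 7 falls, and their summed level was 1.05 times that of DMSO. The 5 largest rises were those of NDUFAF5, NDUFAF4, NDUFAF1, NDUFAF7 and NDUFB9, and the 5 largest falls those of NDUFAF3, NDUFA7, NDUFV1, NDUFAF8 and NDUFAF6, all with values given above. Small falls of NDUFA10, NDUFA12 and NDUFB2 were lost in several alternatives, RLE factors among them (log2 changes -0.13, -0.122 and -0.114).

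Between PdB and recovery the members mostly came down: 37 fell, 5 rose and 4 (NDUFA8, NDUFAB1, NDUFAF1 and NDUFAF6) did not pass, beside 31.5% of all genes tested falling, 34.6% rising and 66.1% changing. The median log2 change was -0.468 beside 0.062 for all genes. The 5 that rose were NDUFAF7, NDUFV2, NDUFV3, NDUFS1 and NDUFB9, of which the first 4 had fallen under PdB. The 5 largest falls were those of NDUFAF3 (-2.06), NDUFAF8 (-1.53), NDUFA11 (-1.40), NDUFV1 (-1.11) and NDUFA7 (-1.08). This comparison shares the PdB libraries with the first and the recovery libraries with the second, so the 3 sets of values are not independent. With library totals as the scaling the medians were -0.2 for the members and 0.328 for all genes, and 25 members fell and 7 rose.

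Read over the 3 tests, 12 of the 33 genes that rose under PdB ended below DMSO, 14 were still above it and 7 had recovery values that did not pass against DMSO, which does not show that they equalled it. The 12 were NDUFS3, NDUFS7, NDUFS8, NDUFV1, NDUFA12, NDUFA11, NDUFB2, NDUFB6, NDUFB8, NDUFAF2, NDUFAF3 and NDUFAF8. They made up 36.4% of the members that rose, beside 15.4% among the 6655 genes of the whole table that rose under PdB. The recovery falls of NDUFA12 and NDUFB2, and the PdB and recovery calls of NDUFS3, were lost in several alternatives. Both shares were taken with the main settings only, and the genes of the whole table were not matched to the members in level. The difference between the shares was not tested. Of the 29 nuclear genes of complexes II to V that rose under PdB, SDHC, COX5A, ATP5PB, ATP5PD, ATP5PO and ATP5MC1 likewise ended below DMSO. Of the 6 members that fell, NDUFS1, NDUFV3, NDUFB5 and NDUFAF6 were still below DMSO, NDUFV2 did not pass against DMSO and NDUFAF7 had gone above. NDUFB5 was the only member with a fall in all 3 comparisons.

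Since the drug acts on introns, the members were also set beside their intron number, counted on the principal transcript of the GENCODE annotation. The 46 members had a median of 3 introns, against 8 for the 14226 protein-coding genes tested. Spearman's rho between introns and log2 change under PdB was -0.37 across the members and -0.34 across all protein-coding genes, a description across genes that share the same libraries. The 14 members with 1 or 2 introns had a median log2 change of 0.66, and protein-coding genes with as many introns had 0.312. For 3 or 4 introns the medians were 0.555 in 19 members and 0.216 in all, for 5 to 9 introns 0.111 in 9 members and -0.0966 in all, and for 10 to 19 introns 0.123 in 4 members and -0.55 in all. NDUFS1, with 18 introns, has the most among these and fell. Intron number did not order the members strictly: NDUFV3 fell with 2 introns, and NDUFAF5, which has 10, had the largest rise. At recovery against DMSO rho was -0.23 across members and -0.2 across all, and with the introns of the longest transcript -0.13 and -0.18.

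**Figure D5:**
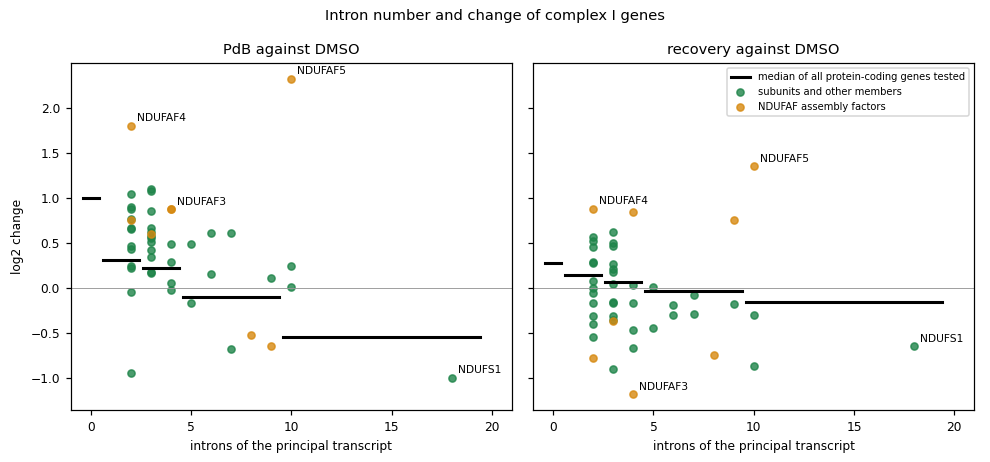
Log2 change against the number of introns of the principal transcript for the 46 complex I genes tested, under PdB (left) and at recovery (right), with black bars for the median of all protein-coding genes tested in each class of intron number up to 19. Members lie mostly above the bars under PdB and on both sides of them at recovery, and NDUFAF5 stands far above the bar of its class in both panels.

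Nuclear respiratory factor 1 (NRF1) is a transcription factor known for binding promoters of respiratory chain genes, and its own transcript was at 23.7, 22.8 and 26.4 CPM in DMSO, 86.5, 85.2 and 79.3 CPM under PdB and 14.9, 17.8 and 15.7 CPM at recovery. NRF1 was highest under PdB and lowest at recovery, without overlap (log2 changes 1.78 ± 0.078 and -0.59 ± 0.08 against DMSO). RefSeq promoters (GRCh38.p14, 250 bases before to 50 after the start, first listed start per gene) were found for 40 of the 47 members. On either strand, 7 of the 40 (17.5%) hold the NRF1 motif, searched as GCGCA, any base and GCGC in a row, against 1716 of 27305 promoters (6.28%). These are shown because they are the members in which that motif can be read, with 30 bases of the gene's strand and the motif in capitals.
NDUFAF5: agccgcgctgGCGCATGCGCacaaaaagcg
NDUFA11: ccggtccccgGCGCGTGCGCgcgatccatg
NDUFA12: acctagctctGCGCACGCGCagagccacca
NDUFB4: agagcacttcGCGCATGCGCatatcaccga
NDUFA3: gtgctccaggGCGCACGCGCagccctggga
NDUFA8: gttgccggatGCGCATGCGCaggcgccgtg
NDUFA9: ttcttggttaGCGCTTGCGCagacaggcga
The windows are chr20:13785014-13785043 on the plus strand for NDUFAF5, chr19:5903869-5903898 on the minus strand for NDUFA11, chr12:95003794-95003823 (minus) for NDUFA12 and chr3:120596167-120596196 (plus) for NDUFB4. Those of NDUFA3, NDUFA8 and NDUFA9 are chr19:54102772-54102801 (plus), chr9:122159764-122159793 (minus) and chr12:4649024-4649053 (plus). NDUFA3, NDUFA8 and NDUFB4 hold further copies, of which 1 in NDUFA8 overlaps the copy shown. Under PdB 6 of the 7 genes rose, where 71.7% of all members tested rose, and NDUFA9 did not pass (0.0062 ± 0.063). At recovery against DMSO NDUFAF5 and NDUFA8 rose, NDUFA9, NDUFA11 and NDUFA12 fell, and NDUFA3 and NDUFB4 did not pass, so these genes had no common course after the drug. Of the other motifs searched on both strands, AAGATGGCG of YY1 was in 5 of the 40 promoters (12.5%, against 1.85% of all), each time within the first bases after the start, and CCGGAAG of the ETS family was in 6 (15%, against 10.7%). AAGATGGCG contains an ATG, so a copy after the start may be the start codon of the gene. Of the genes with the YY1 motif at the first listed start, NDUFS7 rose under PdB and NDUFA6, NDUFA7, NDUFA9 and NDUFS4 did not pass. With any listed start counted, 7 members hold the YY1 motif. The added ones are NDUFAF8 and NDUFB8, and both rose under PdB (0.75 and 0.29). The transcript of YY1 itself rose (1.37 ± 0.047). Of the genes with the ETS motif, NDUFS1 fell and NDUFA1, NDUFA13, NDUFAF4, NDUFB7 and NDUFS3 rose, and any listed start adds NDUFAF8. A match is a run of letters and no evidence of binding, which was not measured here.

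Among the 14 regulators of respiratory genes listed, 11 rose and 3 fell under PdB, and 7 rose and 2 fell at recovery. Of all genes tested 32% rose and 38.2% fell under PdB, and 30.7% rose and 30.5% fell at recovery. The list was chosen with earlier results of these data known. The largest rise under PdB was that of PPARGC1B, a coactivator of NRF1 and of ESRRA, from 7.64, 7.53 and 8.22 CPM in DMSO to 57.7, 54.8 and 53.5 CPM, with 8.65, 9.11 and 8.08 CPM at recovery. The largest fall was that of ESRRA, the oestrogen-related receptor, from 32.4, 39.6 and 38 CPM to 14.8, 12.5 and 14 CPM, with 38.8, 41 and 42 CPM at recovery. Both were back in or next to the DMSO range at recovery, with log2 changes that did not pass (0.14 ± 0.084 and 0.15 ± 0.084). At recovery the extremes were TFB2M, a mitochondrial transcription factor (1.52 ± 0.077), and PPARA, a lipid-sensing receptor (-1.21 ± 0.15).

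The 7 mitochondrially encoded subunits of complex I rose under PdB and at recovery, with medians of 0.637 and 0.615 on the log2 scale. Of all genes tested 32% and 30.7% rose in these comparisons, and 38.2% and 30.5% fell. Under PdB the log2 changes were 0.74 for MT-ND1, 0.64 for MT-ND2, 0.75 for MT-ND3, 0.58 for MT-ND4, 0.59 for MT-ND4L, 0.70 for MT-ND5 and 0.46 for MT-ND6. At recovery they were 0.62, 0.73, 0.82, 0.30, 0.33, 0.54 and 1.09 in the same order. Nuclear and mitochondrial subunits thus both stood higher under PdB, whereas at recovery the nuclear structural subunits had a median of -0.166 with 9 rises and 18 falls in 36. Libraries were made from polyadenylated RNA, so mitochondrial values also depend on how their tails were captured, which was not tested.

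Assembly factors outside the NDUFAF family had 4 rises, 9 falls and 2 not passing among 15 under PdB (median -0.33). Over all genes tested 32% rose and 38.2% fell under PdB, and 30.7% rose and 30.5% fell at recovery against DMSO. CHCHD4, which imports cysteine-rich proteins into the intermembrane space, rose by 1.21 ± 0.074, and OXA1L, the inner membrane insertase, fell by 0.90 (SE 0.057). At recovery 3 rose and 7 fell, with TMEM70 at 0.82 ± 0.097 and ACAD9, a partner of NDUFAF1, at -1.62 ± 0.075. ACAD9 was at 48.5, 50.5 and 49.4 CPM in DMSO, 40, 41.2 and 36.8 CPM under PdB and 17, 14.6 and 16.6 CPM at recovery, in 3 separate ranges. Its partner NDUFAF1 was above DMSO in the same recovery libraries. Between PdB and recovery ECSIT, another partner, rose by 0.56 ± 0.074.

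The 38 nuclear genes of complexes II to V are the nearest comparison. Under PdB 29 rose, 4 fell and 5 did not pass (median 0.479), at recovery 8 rose and 14 fell (median -0.0202), and between PdB and recovery 2 rose and 36 fell. In the same order, 32%, 30.7% and 34.6% of all genes tested rose and 38.2%, 30.5% and 31.5% fell. The complex I genes had medians of 0.493 and -0.163, so the medians lay close under PdB. At recovery the median of complex I was the lower, with an SD over genes of 0.526 in complex I and 0.475 in complexes II to V. The summed levels at recovery had the opposite order, 0.964 times DMSO for complex I and 0.878 times for complexes II to V. These differences were not tested. The extremes were UQCRQ of complex III (1.44 ± 0.064) and SDHA of complex II (-1.47 ± 0.057) under PdB, and SDHD of complex II (0.55 ± 0.068) and CYC1 of complex III (-1.27 ± 0.061) at recovery. SDHA, a flavoprotein that also feeds electrons to ubiquinone, fell as NDUFS1 did and was likewise below DMSO at recovery (-0.89 ± 0.056). Of the 12 supercomplex and iron-sulphur factors 5 rose and 5 fell under PdB, led by IBA57 (1.55 ± 0.079) and ISCA2 (-1.34 ± 0.095), both of which act late in iron-sulphur cluster assembly. At recovery 5 rose and 6 fell, led by ISCU (0.65 ± 0.066), the scaffold on which clusters form, and by LYRM2 (-0.79 ± 0.067) and NFU1 (-0.79 ± 0.11).

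Between genes, levels were compared as CPM per kilobase of the principal transcript. In DMSO the tested members ran from 2.01 for NDUFAF5 to 155 for the readthrough NDUFC2-KCTD14, with a median of 35.1, and NDUFA11 (154), NDUFS5 (123) and NDUFS8 (102) followed the readthrough most closely among subunits. Under PdB NDUFA11 was highest at 330 and NDUFAF7 lowest at 2.76. At recovery the lowest was NDUFV3 at 4.91.

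Counts of overlapping genes limit some of these values. NDUFC2-KCTD14 joins NDUFC2 to its neighbour, and its counts were 100 to 108% of those of NDUFC2 in each library, so reads of NDUFC2 appear to be in both entries. Without the readthrough, 32 members rose and 6 fell under PdB, with a median log2 change of 0.492. NDUFC2 itself rose by 0.76 ± 0.052 under PdB and 0.57 ± 0.052 at recovery. The use of strand in counting is not given in the sources used here. RBM10 overlaps 44.9% of the exon bases of NDUFB11 on the opposite strand, and it fell under PdB by 0.55 while NDUFB11 rose. RNF113A overlaps 44.5% of those of NDUFA1, and both rose (1.14 ± 0.068 and 0.43 ± 0.076), so for NDUFA1 the reads of the pair cannot be told apart. An unnamed antisense gene overlaps 35.8% of the exon bases of NDUFS7 at mean levels of 3.74, 7.56 and 6.78 CPM in DMSO, PdB and recovery, low beside NDUFS7. On the same strand, unnamed genes that share 28.4% of the exon bases of NDUFV2 and 9.65% of those of NDUFA11 had levels near those of the members (61.1, 42 and 50.3 CPM, and 77.6, 131 and 54.4 CPM), so these values hold reads that may be shared. An unnamed same-strand gene shares 33.8% of the exon bases of NDUFB8, at 69.5, 83 and 48.2 CPM. Smaller same-strand overlaps with genes at comparable levels touch NDUFS3 (PTPMT1, 19.6%), NDUFA13 (16.1%) and NDUFA9 (10.6%).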

How the data were processed

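Polyadenylated RNA was measured in 9 libraries. The authors deposited whole-number read counts per gene, not normalised, on hg38. The submitters' processing notes name STAR 2.7.9a and featureCounts 2.0.3, beside fastp 0.23.2, DESeq2 1.30.0 and Picard. The sources used here do not give settings, annotation release or strand use, which can move counts between overlapping genes.

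Coordinates, introns and gene types came from GENCODE 29 (58396 IDs matched). Introns were counted on the APPRIS principal transcript, a choice made after seeing the data, since the longest transcript of some genes keeps introns. Counts were filtered with filterByExpr (20812 genes), scaled by TMM and tested two-sided with edgeR 4.0.16 (quasi-likelihood, all 9 libraries, Benjamini-Hochberg at 0.05, in R 4.3.3). The common biological coefficient of variation was 0.111. Depth sets a floor of 3 counts, at most 0.0576 CPM in a library, which covers counting error only. Chi-square per degree of freedom between libraries of a group was 4.98 to 26, so none was taken for a duplicate. Replicate numbers shared in the labels were not used to pair libraries.

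The name rule finds 1 further gene that is not reported here. Members and lists were chosen with earlier results of these data known. The genes named were the 5 members with the largest passing rise and fall in each comparison, the core subunits, the NDUFAF factors, NDUFAB1, NDUFA4, NDUFA4L2, and the largest rise and fall of each other list. Other genes named in the text were chosen after their values were seen. Other settings tried were scaling by RLE, upper quartile or library totals, 2 filters, DESeq2 1.42.0, 6 libraries only, the replicate block and each library left out. The YY1 and ETS motifs and the count without the readthrough were added after seeing the data. In simulated data of 20812 genes, 67 were given a 1.5-fold change, 67 a 2-fold and 66 a 4-fold change. In the set made for PdB against DMSO, 79.1% of the 1.5-fold and 92.5% of the 2-fold changes were found, with 2.72% false calls. The set made for the recovery libraries beside DMSO gave 76.1% and 91%, and its false share was 3.78%. In the real data 70.1% of genes changed under PdB. A shift of that extent was not simulated, so these shares are not error rates for the members.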

Additional observations from a re-analysis of the deposited data

Results flagged for a closer look

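Among the entries left out by the name rule, 5 passed the filter on low counts (NDUFAF2P1, NDUFV2P1, NDUFB2-AS1, NDUFV2-AS1 and NDUFA6-DT), and they enter no comparison above. The antisense transcript NDUFB2-AS1 had a signal above the controls: 2.26, 1.63 and 1.8 CPM in DMSO and 2.62, 2.31 and 3.65 CPM under PdB, a log2 change of 0.59 (edgeR adjusted p = 0.04). The PdB libraries were above every DMSO library. NDUFB2-AS1 overlaps 7.22% of the exon bases of NDUFB2 on the other strand, NDUFB2 rose by 0.51 ± 0.066 in the same comparison, and without known strand use their reads cannot be told apart.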

How the results depend on the processing

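Counts of members that rose or fell stayed within 1.5 times their value under each alternative, except that 9 fell under PdB with library totals against 6. Of 118 gene results past the threshold, 92 kept direction and call in every alternative and 26 lost the call in at least 1, 6 of which also turned in sign in at least 1. The members' median log2 changes (PdB against DMSO, recovery against DMSO, recovery against PdB) moved with the scaling, to 0.589, -0.117 and -0.518 with RLE factors or DESeq2, to 0.643, -0.0858 and -0.541 with upper-quartile factors and to 0.296, -0.0916 and -0.2 with library totals. Scaling moved the median of all genes as well, under PdB from -0.11 to 0.0385 with upper-quartile factors and to -0.306 with library totals. A mean of at least 50 counts gave 0.616 under PdB and -0.551 for recovery against PdB, and only the 6 libraries compared gave 0.57 under PdB. Leaving out each library in turn gave medians of 0.423 to 0.516, -0.199 to -0.0898 and -0.474 to -0.456, with 29 to 33 rises and 5 to 6 falls under PdB, 13 to 15 and 19 to 24 at recovery against DMSO, and 4 to 5 and 35 to 38 against PdB. The lowest median under PdB came without DMSO replicate 1, and the recovery median nearest 0 without DMSO replicate 3. The cause was not tested.

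Deviations of same-numbered libraries correlated weakly, between -0.00323 and 0.048, and those of differently numbered libraries between -0.0615 and 0.0263. Whether same-numbered libraries share more than a number was not tested. With the replicate number as a block, 34 members rose and 6 fell under PdB, 15 and 22 at recovery against DMSO, and 5 and 38 against PdB.

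Signs turned as follows, mostly for values near 0, and the cause was not tested. Under PdB NDUFA5 and NDUFA6 became 0.0699 and 0.0551 with RLE factors or DESeq2, 0.122 and 0.109 with upper-quartile factors, 0.0966 and 0.0817 with a mean of at least 50 counts and 0.0496 and 0.0361 with only the 6 libraries. At recovery against DMSO NDUFB7 became 0.0402 (RLE or DESeq2), 0.0718 (upper quartile), 0.0666 (library totals), 0.0343 (50 counts) and 0.000582 (6 libraries), NDUFB4 0.0195 (upper quartile) and 0.0138 (library totals), and NDUFC1 -0.00823 without a filter. Against PdB NDUFA8 became -0.0067 (RLE), -0.00665 (DESeq2), -0.0296 (upper quartile) and -0.0396 (50 counts). With library totals the values under PdB were -0.0855 for NDUFA10, -0.139 for NDUFS4, -0.0321 for NDUFA8, -0.048 for NDUFS3, -0.0174 for NDUFA7 and -0.19 for NDUFA9, the last past the threshold. NDUFA9 was -0.0278 without a filter. Also with library totals, the values against PdB were 0.0447 for NDUFS4, 0.0336 for NDUFAF6, 0.117 for NDUFC2-KCTD14, 0.0743 for NDUFC2, 0.151 for NDUFAB1, 0.0034 for NDUFA6 and, past the threshold, 0.241 for NDUFAF1. Leaving out each library in turn gave ranges across 0 under PdB for NDUFA5 (-0.0879 to 0.0463), NDUFA6 (-0.0935 to 0.00412), NDUFA9 (-0.0315 to 0.0446) and NDUFS4 (-0.0023 to 0.125). At recovery against DMSO it did so for NDUFA3 (-0.0602 to 0.151), NDUFA13 (-0.0161 to 0.0548), NDUFB4 (-0.127 to 0.0184), NDUFB7 (-0.095 to 0.0573) and NDUFC1 (-0.0739 to 0.091), and against PdB for NDUFAF1 (-0.0773 to 0.02).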
